A study of Mus musculus with 97 samples.

Results

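Erlin2 and Tmed2 are 2 of the 19962 mouse genes in the count table, and they were chosen by name as genes of the endoplasmic reticulum and the early secretory pathway. Their names were known from earlier results on these same data, in which Erlin2 was called higher in hippocampus than in cortex of vehicle libraries and Tmed2 was called between DC and vehicle libraries of APOE3 hippocampus. Those contrasts, and every other Tmed2 contrast that uses the APOE3 DC hippocampus libraries, are therefore given below as descriptions with no test. Both genes passed the low-count filter in every fit: they are among 57 genes tested in cortex, 38 tested in hippocampus and 58 tested over the 12 groups.

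Newly made membrane and secreted proteins enter the endoplasmic reticulum, are folded and checked there, and leave for the Golgi in COPII-coated vesicles, while COPI-coated vesicles carry material back. Erlin2 is a protein of the SPFH family that forms a ring-like complex with Erlin1 in the reticulum membrane, takes part in the degradation of activated inositol trisphosphate receptors, and has been linked to the sterol-sensing machinery; loss of human ERLIN2 is a known cause of hereditary spastic paraplegia. Tmed2 belongs to the p24 family of cargo receptors, which cycle between the endoplasmic reticulum and the Golgi and help select cargo such as glycolipid-anchored proteins. In the mouse reference mm10 (GRCm38), Erlin2 is a protein-coding gene on chromosome 8 at 27023371 to 27039437 and Tmed2 is a protein-coding gene on chromosome 5 at 124540791 to 124550503.

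The libraries were made with the NanoString GeoMx Digital Spatial Profiler, in which probes bound to RNA in a tissue section carry tags that ultraviolet light releases from a chosen region for sequencing. Older mice with a human APOE3 or APOE4 knock-in were injected into the peritoneum with vehicle (dimethyl sulfoxide with phosphate-buffered saline) or with doxorubicin at a weekly 3 mg/kg plus a second agent, which was docetaxel at a weekly 10 mg/kg for DD and cyclophosphamide at a weekly 40 mg/kg for DC. The 97 captured regions, 49 of cortex and 48 of hippocampus, fell into 12 groups; APOE3 DD cortex had 9 libraries and every other group 8. The series title puts the question as how the APOE allele and combined chemotherapy alter inflammatory, metabolic and neuroprotective pathways. All groups thus carry a human APOE allele, and no mouse with its own Apoe gene is among them. Neither the exact age nor the way regions were picked is stated in the labels.

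The libraries held 21568 to 1850582 counts in total (median 44846). Each library has a combined negative probe, a value for tags that match no mouse transcript, and the median ratio of all genes to that probe was 0.936 in cortex and 0.912 in hippocampus. Over the whole table, 97 genes in cortex and 60 in hippocampus had a median above 2 times the negative probe. In 13 libraries, all of them APOE4 and 6 of them APOE4 DC hippocampus, the negative probe was 5 or more, with a highest value of 93.1. Of 32 marker genes for cortex neurons, hippocampus neurons, astrocytes, oligodendrocytes, microglia, endothelium and choroid plexus, 0 passed the low-count filter and 0 reached 2 times the negative probe. The nearest was Slc17a7, the vesicular glutamate transporter of cortical excitatory neurons, at 1.85 times in cortex. All 7 hippocampus neuron markers lay below the negative probe in hippocampus, the highest of them Fibcd1 at 0.940 times, so the region labels could not be checked against markers. A gene's lower count can mean fewer cells that make it or less RNA per cell, and captured regions cannot tell these apart.

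Erlin2 stood well clear of the negative probe and Tmed2 less so. The Erlin2 count had a median of 42 per library and ran from 5 to 186, and it exceeded the negative probe in 97 of 97 libraries. Its median ratio to that probe was 15.4 in cortex and 21.6 in hippocampus. The Tmed2 count had a median of 15 and ran from 1 to 151. Its median ratio was 6.54 in cortex and 7.87 in hippocampus, and in 2 cortex libraries the count was 1, the lowest value in the table, and did not exceed the probe. With such counts the level of Tmed2 in a single library is known only roughly. Over all 97 libraries the median ratio was 19.5 for Erlin2 and 7.16 for Tmed2, ranks 12 and 28 among 19962 genes. It was 37.1 for the chromatin protein gene Hmga2 and 16.5 for the segmentation gene Ripply2. The vomeronasal receptor gene Vmn1r189 was at 10.3 and the olfactory receptor gene Olfr655 at 4.32. A high ratio was thus not particular to genes of the secretory pathway.

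On the log2 CPM scale, which sets each count against the summed counts of the tested genes in its library, Erlin2 was higher in hippocampus than in cortex after both chemotherapy regimens and in both genotypes, while on the ratio to the negative probe the difference was smaller and had the opposite sign in APOE4 DC. In APOE3 DD libraries, log2 CPM of Erlin2 was 12.56 at the lowest, 13.18 at the median and 13.58 at the highest in cortex, and 14.06, 14.44 and 14.75 in hippocampus. Every hippocampus library thus lay above every cortex library. In APOE3 DC the same values were 12.53, 12.75 and 13.32 in cortex and 13.52, 14.05 and 14.66 in hippocampus, again with no overlap. APOE4 DD libraries were at 12.29, 12.96 and 13.27 in cortex and at 13.96, 14.24 and 14.96 in hippocampus. These too did not overlap. In APOE4 DC the ranges did overlap, with 12.51, 12.95 and 13.59 in cortex and 12.62, 13.74 and 14.73 in hippocampus, and 5 of 8 hippocampus libraries lay above all cortex libraries. Such full separation was seen for 20.7% of the 58 tested genes in APOE3 DD, 5.17% in APOE3 DC, 17.2% in APOE4 DD and 8.62% in APOE4 DC.

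The fitted hippocampus minus cortex difference for Erlin2 passed in 4 of 4 tested groups. It was a log2 fold change of 1.36 ± 0.20 (SE) in APOE3 DD (edgeR adjusted p = 1.02e-08), or 2.57-fold, and without APOE3 DD cortex 5, 7 or 8 it was 0.83 to 0.84 and still passed. In APOE4 DD it was 1.47 ± 0.19 (edgeR adjusted p = 1.83e-10), in APOE3 DC 1.33 ± 0.24 (edgeR adjusted p = 9.95e-07) and in APOE4 DC 0.97 ± 0.18 (edgeR adjusted p = 2.20e-06). Genes that passed as higher in hippocampus made up 34.5%, 31%, 29.3% and 37.9% of the genes tested in these groups, so a pass of this kind was common. No label says which regions came from the same animal, so regions were counted as independent; wherever some share an animal, these and all later p-values are smaller than they should be. In vehicle libraries, which served the earlier choice of Erlin2, the difference was 1.26 ± 0.21 in APOE3 and 1.05 ± 0.19 in APOE4. There log2 CPM ran from 12.76 to 13.97 in APOE3 cortex and from 14.49 to 15.03 in APOE3 hippocampus, without overlap. It ran from 12.04 to 13.82 in APOE4 cortex and from 13.37 to 14.43 in APOE4 hippocampus, with overlap, where 6.9% of tested genes were fully separated.

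**Figure D1:**
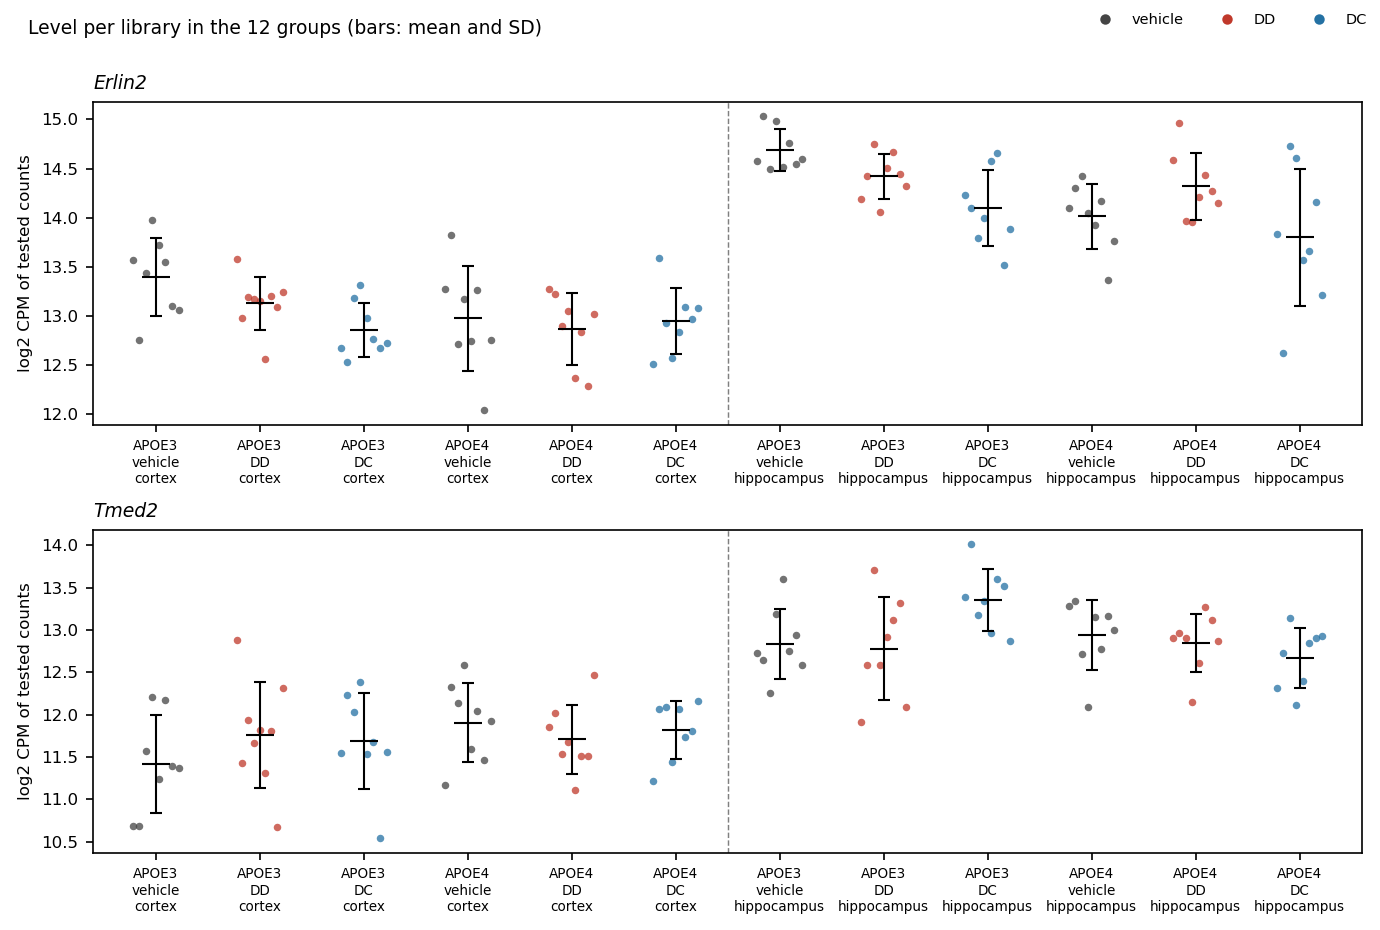
Level of Erlin2 (top) and Tmed2 (bottom) in each of the 97 libraries, as log2 CPM of the tested genes, with colour for treatment, the group on the horizontal axis, and black bars for mean and SD. For both genes the 6 hippocampus groups at the right have the 6 highest means on this scale, and the libraries of the regions overlap in part.

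Tmed2 showed the same order of regions on the log2 CPM scale in 6 of 6 groups, vehicle included, and it too had the opposite sign in APOE4 DC on the ratio to the negative probe. In APOE3 vehicle its log2 CPM was 10.69 at the lowest, 11.38 at the median and 12.21 at the highest in cortex, and 12.25, 12.74 and 13.60 in hippocampus. The groups did not overlap, though the highest cortex and lowest hippocampus library nearly met. In APOE4 vehicle the values were 11.17, 11.99 and 12.58 in cortex and 12.09, 13.08 and 13.34 in hippocampus, with 7 of 8 hippocampus libraries above all cortex libraries. APOE3 DC had 10.54, 11.61 and 12.39 in cortex and 12.87, 13.37 and 14.01 in hippocampus, without overlap. In APOE3 DD, APOE4 DD and APOE4 DC the ranges overlapped, with 4, 7 and 7 of 8 hippocampus libraries above all cortex libraries. Full separation held for 13.8% of tested genes in APOE3 vehicle and 5.17% in APOE3 DC.

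The fitted difference for Tmed2 was 1.38 ± 0.28 in APOE3 vehicle (edgeR adjusted p = 2.02e-05) and 1.10 ± 0.22 in APOE4 vehicle (edgeR adjusted p = 7.40e-06), where 29.3% and 27.6% of tested genes passed as higher. Genes that passed as higher made up 34.5%, 31% and 37.9% of those tested in APOE3 DD, APOE4 DD and APOE4 DC. In APOE3 DD the Tmed2 difference was 1.27 ± 0.25 (edgeR adjusted p = 6.81e-06), with 0.59 to 0.73 without APOE3 DD cortex 5, 7 or 8, where it still passed, and in APOE4 DD 1.17 ± 0.21 (edgeR adjusted p = 5.43e-07). In APOE4 DC the difference was 0.95 ± 0.20 (edgeR adjusted p = 1.16e-05), and its sign turned under 5 other settings, with values from -0.75 to -0.17. The difference thus passed in 5 of 5 tested groups. The APOE3 vehicle test is not independent of the earlier choice of Tmed2, which used its hippocampus libraries. In APOE3 DC, whose hippocampus libraries also served that choice, the difference was 1.73 ± 0.27, or 3.32-fold.

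The region difference of both genes depended on what they were measured against. Counts of the tested genes were lower in hippocampus than in cortex in several groups, with medians of 962 against 1733.5 in APOE3 DC and 2007.5 against 4082 in APOE3 DD, and Mtch2, a mitochondrial outer membrane protein with more counts than any other gene, held a median of 41.7% of them in hippocampus and 21.5% in cortex. The Erlin2 count itself had similar medians in both regions in these groups, 16 against 17.5 in APOE3 DC and 34.5 against 36 in APOE3 DD. In the other groups its median was higher in hippocampus. It was 42 against 20 in APOE3 vehicle, 48 against 43.5 in APOE4 vehicle, 71.5 against 44.5 in APOE4 DD and 85 against 53.5 in APOE4 DC. In APOE3 vehicle the counts of the tested genes were also higher in hippocampus, with medians of 3038.5 against 2182. The median ratio of Erlin2 to the negative probe was 12.5 in hippocampus and 12.6 in cortex in APOE3 DC, and 28.2 and 15.2 in APOE4 DD. In APOE4 DC it was 6.14 in hippocampus and 17.8 in cortex, the opposite order. There the negative probe had a median of 10.9 in hippocampus and 4.26 in cortex; its part in the reversal was not tested.

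Tested on the log2 ratio to the negative probe with limma, Erlin2 passed in APOE4 DD alone of the 4 tested groups (1.02 ± 0.42, limma adjusted p = 0.0492). Tmed2 passed in APOE3 vehicle alone of its 5 (1.01 ± 0.42, limma adjusted p = 0.0456). That Tmed2 test uses hippocampus libraries of the earlier choice of Tmed2 and is not independent of it. In either direction, 20 of 58 tested genes passed on this scale in APOE4 DD and 24 of 58 in APOE3 vehicle. In APOE4 DC the differences were -0.81 for Erlin2 and -0.75 for Tmed2, neither of which passed. On that scale the median tested gene was itself lower in hippocampus, with a log2 difference of -1.49 to -0.68 over the 6 groups. Measured from the median tested gene, Erlin2 stood 0.66 to 1.74 above it on the CPM scale and 0.68 to 1.75 above it on the ratio scale. The corresponding ranges for Tmed2 were 0.64 to 1.64 and 0.74 to 1.88. Both scales set every gene of a library against 1 number, so these positions were bound to be nearly alike. Their likeness is no separate check of the region difference. Both genes stood above the median tested gene in all 6 groups, which include the contrasts described without a test. When genes with lower counts entered the fit, most calls were lost: with a minimum count of 5, 1 of 4 contrasts passed for Erlin2 and 0 of 5 for Tmed2, and with no filter 0 passed for either. With neighbouring libraries of a group (runs of wells) summed, 257 genes were tested and 0 of 4 passed for Erlin2 and 0 of 5 for Tmed2, while all passed when the 58 genes were kept.

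**Figure D2:**
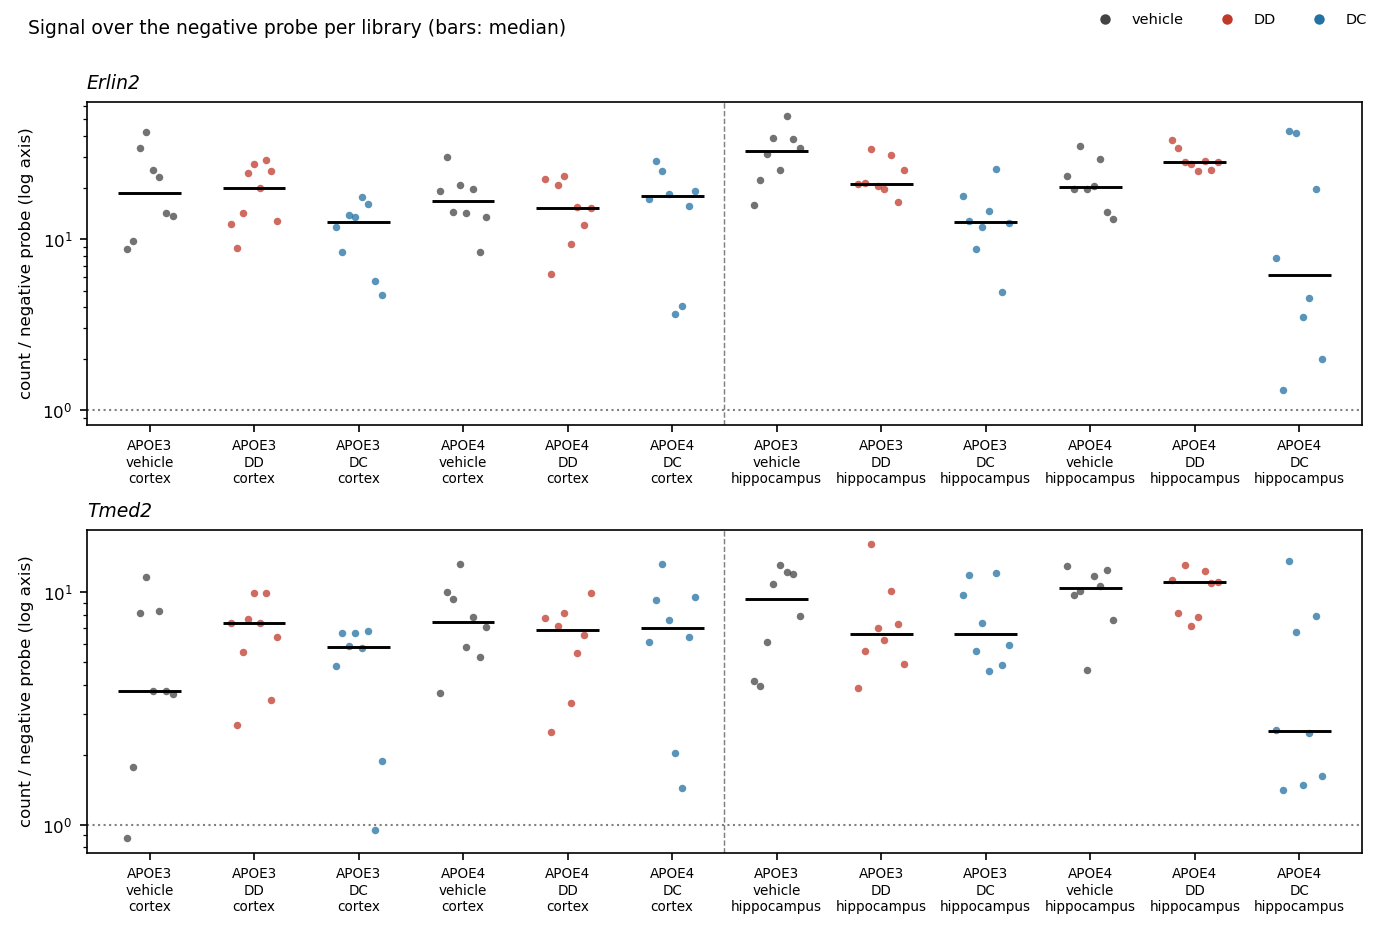
Count of Erlin2 (top) and Tmed2 (bottom) divided by the negative probe of the same library, on a log axis, with a dotted line where they are equal and a black bar at the group median. APOE4 DC hippocampus has the lowest medians, 6.14 for Erlin2 and 2.52 for Tmed2. The regions overlap in every group for both genes except APOE4 DD for Erlin2 (lowest hippocampus library 25.2, highest cortex library 23.3). How many tested genes separate on this scale was not computed.

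**Figure D3:**
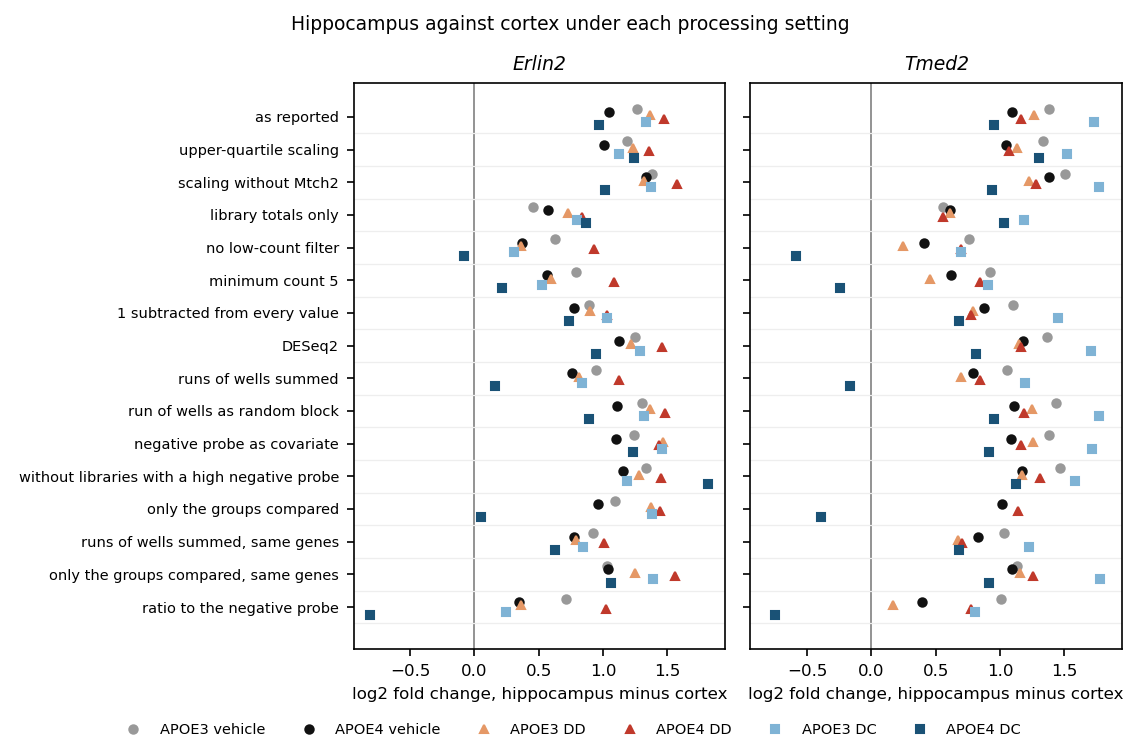
Log2 fold change of hippocampus minus cortex for Erlin2 (left) and Tmed2 (right) in the 6 groups of genotype and treatment, with a row for each way of processing the counts. Most points lie right of 0, and the APOE4 DC points of both genes cross it under the ratio to the negative probe (-0.81 and -0.75) and when no filter is used (-0.079 and -0.59). For Tmed2 they also cross it with a minimum count of 5 (-0.24), runs of wells summed (-0.17) and only the groups compared (-0.39).

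In order of mean log2 CPM, Erlin2 was highest in APOE3 vehicle hippocampus (14.69 ± 0.21, SD, n = 8). APOE3 DD (14.42 ± 0.23), APOE4 DD (14.32 ± 0.34), APOE3 DC (14.10 ± 0.39), APOE4 vehicle (14.01 ± 0.33) and APOE4 DC hippocampus (13.80 ± 0.70) came next. The cortex groups followed with APOE3 vehicle (13.40 ± 0.40), APOE3 DD (13.13 ± 0.27, n = 9), APOE4 vehicle (12.98 ± 0.53), APOE4 DC (12.95 ± 0.34), APOE4 DD (12.87 ± 0.37) and APOE3 DC (12.86 ± 0.28). Neighbours in this order differed by less than the larger of their SDs in 10 of 11 steps; the exception was the step from the highest group to the next, 0.27. The break between regions was no wider than the SD of APOE4 DC hippocampus.

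Tmed2 had its highest mean in APOE3 DC hippocampus (13.36 ± 0.37, SD, n = 8). Then came APOE4 vehicle (12.94 ± 0.41), APOE4 DD (12.85 ± 0.34), APOE3 vehicle (12.83 ± 0.41), APOE3 DD (12.78 ± 0.61) and APOE4 DC hippocampus (12.67 ± 0.35). In cortex the order was APOE4 vehicle (11.91 ± 0.47), APOE4 DC (11.82 ± 0.34), APOE3 DD (11.76 ± 0.62, n = 9), APOE4 DD (11.71 ± 0.41), APOE3 DC (11.69 ± 0.57) and APOE3 vehicle (11.42 ± 0.58). Of the 11 steps, 2 exceeded the larger SD: the step from APOE3 DC hippocampus to the next group (0.42) and the step from the lowest hippocampus to the highest cortex group (0.77). On the ratio to the negative probe, 4 of the 6 highest group means of Erlin2 and 5 of the 6 of Tmed2 were hippocampus groups.

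Neither regimen moved Erlin2 past the threshold: 0 of 8 treatment contrasts passed, with log2 fold changes from -0.52 to 0.17. Each contrast uses vehicle libraries that also served the earlier choice of Erlin2, so these tests are not independent of that choice. The lowest adjusted p belonged to DC against vehicle in APOE3 cortex, at -0.52 ± 0.21 (edgeR adjusted p = 0.0862), where the Erlin2 count had a median of 17.5 after DC and 20 after vehicle. That contrast crossed the threshold under 3 other settings and without any of 7 single libraries, at values of -0.66 to -0.54, and the libraries are APOE3 vehicle cortex 1, 2, 7 and 8 and APOE3 DC cortex 3, 4 and 8. In APOE3 hippocampus the DC difference was -0.34 ± 0.18 and the Erlin2 count had a median of 16 after DC and 42 after vehicle. Against the negative probe, the DC difference of Erlin2 in hippocampus was -1.30 in APOE3 (limma adjusted p = 0.0164) and -1.46 in APOE4 (limma adjusted p = 0.00215). The median tested gene shifted by -0.89 and -1.44 there, and 14 and 35 of the 38 tested genes passed on that scale. With library totals only, the APOE4 value had the other sign, 0.43 (edgeR adjusted p = 0.0145), where 21 of 38 tested genes passed. In the main edgeR fits, the share of tested genes that passed was 12.3% for DC in APOE3 cortex and 21.1% for DC in APOE3 hippocampus. It was 1.75% for DC in APOE4 cortex and 21.1% for DC in APOE4 hippocampus. For DD it was 3.51% in APOE3 cortex, 2.63% in APOE3 hippocampus, 12.3% in APOE4 cortex and 5.26% in APOE4 hippocampus.

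Tmed2 passed in 0 of its 7 tested treatment contrasts, with log2 fold changes from -0.24 to 0.29 and a lowest edgeR adjusted p of 0.491. DD against vehicle in APOE3 hippocampus uses vehicle libraries of the earlier choice of Tmed2, so that test is not independent of it. The described contrast, DC against vehicle in APOE3 hippocampus, had a log2 fold change of 0.74 ± 0.25. There the raw Tmed2 count was 5 at the lowest, 10.5 at the median and 16 at the highest after DC, and 5, 11.5 and 17 after vehicle. The counts of the groups thus covered nearly the same range. The summed counts of the tested genes in the same libraries had a median of 962 after DC and 3038.5 after vehicle, while the negative probe had medians of 1.26 and 1.27. Against the negative probe Tmed2 was at a median of 6.65 after DC and 9.36 after vehicle, a fitted difference of -0.14. On the CPM scale a similar Tmed2 count was thus set against a lower sum, and the sign turned under the ratio to the negative probe and with no low-count filter (-0.19). In APOE4 hippocampus the DC difference was -0.05 ± 0.19 on the CPM scale and -1.52 against the negative probe (limma adjusted p = 0.000975). On the latter scale the median tested gene was at -1.44 and 35 of 38 tested genes passed. With library totals only, the Tmed2 value had the other sign, 0.53 (edgeR adjusted p = 0.0442), where 21 of 38 tested genes passed.

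Between regimens, DD against DC, 0 of 4 contrasts passed for Erlin2 and 0 of 3 for Tmed2. The described Tmed2 difference in APOE3 hippocampus was -0.67 ± 0.25, and -0.058 against the negative probe. The share of tested genes that passed in the edgeR fits was 10.5% in APOE4 hippocampus and 0% in the other 3 comparisons. On the ratio to the negative probe in APOE4 hippocampus, Erlin2 was higher after DD than after DC by 1.93 (limma adjusted p = 5.39e-05). Tmed2 was higher by 1.58 (limma adjusted p = 0.000334) and the median tested gene by 1.74. On that scale 38 of the 38 tested genes passed, so a pass was not particular to either gene. With library totals only, the Tmed2 difference there was -0.63 (edgeR adjusted p = 0.0323), where 9 of 38 tested genes passed.

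**Figure D4:**
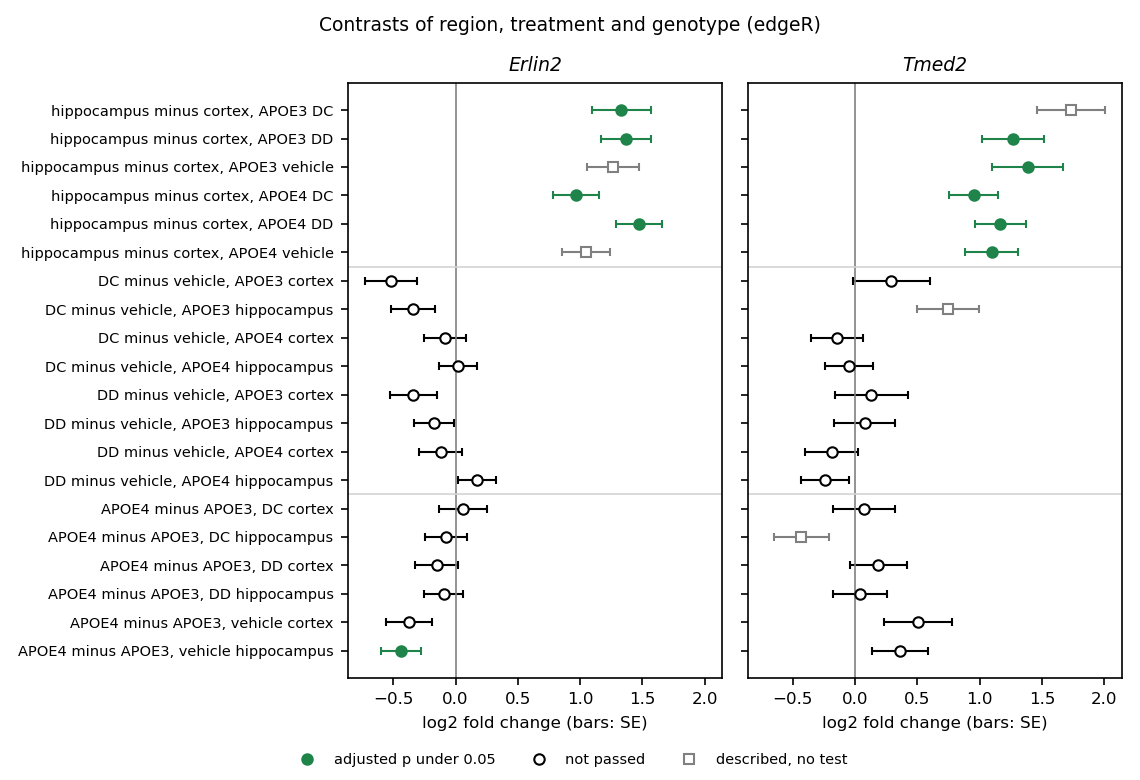
Log2 fold changes with SE of Erlin2 (left) and Tmed2 (right) for hippocampus minus cortex, treatment minus vehicle and APOE4 minus APOE3. Filled green circles passed an edgeR adjusted p of 0.05, open circles did not, and grey squares are described without a test; the region contrasts stand between 0.95 and 1.73, and the treatment contrasts gather around 0.

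Erlin2 was lower in APOE4 than in APOE3 vehicle hippocampus, with a log2 fold change of -0.44 ± 0.16 (edgeR adjusted p = 0.0212), where 23.7% of tested genes passed as lower. Log2 CPM in that region was 13.37, 14.07 and 14.43 at the lowest, median and highest in APOE4 and 14.49, 14.59 and 15.03 in APOE3. These values are scaled over all 12 groups, and the share of tested genes fully separated between genotypes was not computed. On the scaling of the hippocampus fit, which gave the test, the libraries overlapped. Their means there were 13.89 ± 0.25 (SD) in APOE4 and 14.34 ± 0.20 in APOE3. The Erlin2 counts had medians of 48 in APOE4 and 42 in APOE3. These hippocampus libraries, like those of vehicle cortex, also served the earlier choice of Erlin2, in another contrast. The p-values of its vehicle genotype contrasts are therefore not independent of that choice. All APOE4 libraries were on 1 collection plate and all APOE3 libraries on the other, so genotype and plate cannot be told apart. The call was lost without any of APOE4 vehicle hippocampus 1, 5, 7 and 8 or APOE3 vehicle hippocampus 4 (-0.38 to -0.33). It was also lost under 10 other settings. The value was 0.000311 when no scaling beyond the library total was used. The median tested gene was at 0.35 under that setting and at -0.07 in the main fit. Erlin2 stood at -0.35 and -0.37 from it. These positions were bound to be nearly alike, so they are no separate check. The other 5 genotype contrasts of Erlin2 did not pass and ran from -0.37 to 0.06. In vehicle cortex the difference was -0.37 ± 0.19 (edgeR adjusted p = 0.146), against a share of 21.1% of tested genes that passed. That contrast passed without APOE4 vehicle cortex 2, 4 or 6 or APOE3 vehicle cortex 1, 2, 7 or 8 (-0.58 to -0.51).

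Tmed2 passed in 0 of 5 tested genotype contrasts, with values from 0.04 to 0.50. The largest was APOE4 minus APOE3 in vehicle cortex, 0.50 ± 0.27 (edgeR adjusted p = 0.181), and it passed with library totals only (0.71, edgeR adjusted p = 0.0495). Under that setting 14 of 57 tested genes passed, and the median tested gene was at 0.18. In vehicle hippocampus the difference was 0.36 ± 0.22 (edgeR adjusted p = 0.199). It passed with upper-quartile scaling (0.76, edgeR adjusted p = 0.0114) and with library totals only (0.80, edgeR adjusted p = 0.0107). Under these settings 14 and 15 of 38 tested genes passed, and the median tested gene was at 0.32 and 0.35. The APOE3 vehicle hippocampus libraries also served the earlier choice of Tmed2, so these tests are not independent of it. In DC hippocampus, described without a test, the Tmed2 difference was -0.43 ± 0.22, and -0.82 without the libraries of high negative probe. In the main edgeR fits, the share of tested genes that passed was 24.6% in DC cortex, 21.1% in DC hippocampus and 21.1% in DD cortex. It was 7.89% in DD hippocampus and 39.5% in vehicle hippocampus.

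Whether genotype changed the response to treatment was tested as an interaction. Erlin2 passed in 0 of 4 interactions (0.22 to 0.43). The share of tested genes that passed was 3.51% for DC in cortex, 5.26% for DC in hippocampus and 0% for DD in either region. Each interaction contains vehicle libraries of the earlier choice of Erlin2, so its Erlin2 test is not independent of that choice. The Tmed2 interaction for DC in hippocampus was -0.79 ± 0.31; it contains the described DC contrast and has no test, and it ran from -0.96 to -0.59 as single libraries were left out. The other 3 interactions of Tmed2 did not pass and ran from -0.44 to -0.32. Of these, the DD interaction in hippocampus contains vehicle libraries of the earlier choice of Tmed2 and is not independent of it.

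Among the 57 other genes tested over the 12 groups, the mean levels most like those of Erlin2 belonged to Gm33888 (Pearson r = 0.970, Spearman rho = 0.937, over 12 group means). Mtch2 (r = 0.939), Gm34733 (0.938), the segmentation gene Ripply2 (0.935) and the chromatin protein gene Hmga2 (0.921) followed. For Tmed2 they included the vomeronasal receptor gene Vmn1r189 (r = 0.966, rho = 0.895), Gm46840 (0.924), the olfactory receptor gene Olfr655 (0.889) and Hmga2 (0.882). The group means of all these genes share their libraries and scaling. With the mean of each region taken off, r for Erlin2 was 0.918 with Mtch2, 0.804 with Ripply2, 0.797 with Gm33888, 0.662 with Gm34733 and 0.532 with Hmga2. For Tmed2 it was lower, at 0.531 with Vmn1r189, 0.460 with Gm46840, 0.182 with Hmga2 and 0.124 with Olfr655. Over the 97 libraries with group means taken off, the correlation of Erlin2 was 0.733 with Gm33888, 0.705 with Gm34733 and 0.406 with Mtch2. The corresponding value of Tmed2 was 0.268 with Vmn1r189 and 0.015 with Olfr655. Erlin2 and Tmed2 themselves had r = 0.852 over the group means, -0.270 once each region's mean was taken off, and 0.336 over libraries.

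**Figure D5:**
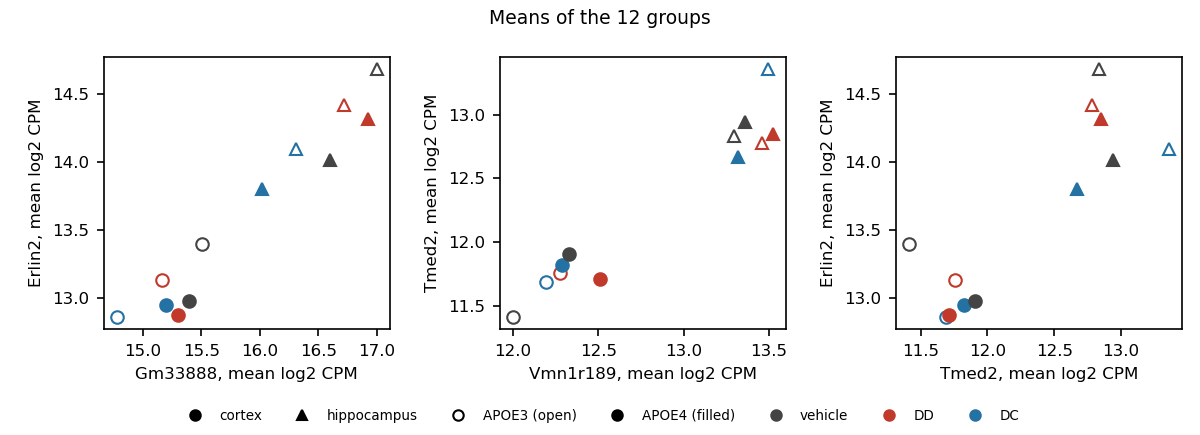
Mean log2 CPM in the 12 groups for Erlin2 against Gm33888 (left), Tmed2 against Vmn1r189 (middle) and Erlin2 against Tmed2 (right), with circles for cortex, triangles for hippocampus, open symbols for APOE3 and colour for treatment. In each panel the regions form separate clouds, and within a region Erlin2 follows Gm33888 (r = 0.797 with region means taken off) and does not follow Tmed2 (-0.270).

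Erlin2 and Tmed2 were the only genes of their pathways with a signal that could be tested, among the genes listed here. Of 124 other genes in 9 lists, all in the count table, 0 passed the low-count filter and 0 had a median above 2 times the negative probe. The lists were the p24 family, the COPI coat, the COPII coat, other cargo receptors and fusion factors between the endoplasmic reticulum and the Golgi, erlin partners with degradation from the reticulum, other SPFH proteins, sterol sensing, translocon and chaperones, and the unfolded protein response. In cortex 18.5% of the listed genes had a median above the negative probe, beside 17.7% of all genes, and in hippocampus 8.06% beside 16.5%. Among the 9 other p24 genes the highest ratios were 0.944 for Tmed10 in cortex and 1.04 for Tmed6 in hippocampus. Among the erlin partners Tmub1, a membrane protein of the reticulum's degradation pathway, was highest, with a ratio of 1.31 in cortex and 1.53 in hippocampus. COPII members Sar1b, the GTPase that starts coat assembly, and Sec13, a subunit of the outer coat, reached 1.29 and 1.26 in cortex, and Arf1, the GTPase that recruits COPI, reached 1.15. The cargo receptor Surf4 was at 1.20, the translocon channel Sec61a1 and the chaperone calnexin, Canx, were both at 1.11, the stress-induced Trib3 was at 1.08, the sterol escort protein Scap at 1.08 and the SPFH relative Stoml1 at 1.04, all in cortex.

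With no low-count filter, the listed genes passed in 2 of 992 treatment tests (0.202%, beside 0.185% of all genes), in 0 of 744 region tests and in 0 of 744 genotype tests. Their median log2 fold change over the treatment contrasts was 0.000447, beside -0.012 for all genes. Both passing tests were of Insig1, which retains the sterol sensor Scap in the reticulum, and it was lower in APOE4 hippocampus after DD (-1.72 ± 0.43, edgeR adjusted p = 0.0420) and after DC (-1.19 ± 0.30, edgeR adjusted p = 0.0208). As lower, 0.331% of all genes passed after DD and 0.917% after DC. The median ratio of Insig1 to the negative probe over hippocampus libraries was 0.924, so this value rests on counts at the level of the background.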

How the data were processed

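The authors deposited a table of unscaled expected counts for 97 GeoMx libraries; the values are whole in all but 4 rows and the lowest value is 1 in 94 libraries. The submitters' processing notes name mm10; the counting software is not given in the sources used here. Groups were taken from the labels. Counts were rounded and fitted with edgeR 4.0.16 in R 4.3.3 (TMM scaling, filterByExpr with a minimum count of 10, quasi-likelihood F test, Benjamini-Hochberg over all genes tested, threshold 0.05). The 6 groups of a region were fitted together for treatment and genotype, and all 12 groups for regions and levels; 28 contrasts were computed per gene. Log2 CPM used a prior count of 2 and the tested genes' summed counts. SEs come from the F statistic. Totals of 21568 to 1850582 counts per library, mostly background, limit precision, chiefly for Tmed2. DESeq2 1.42.0, limma 3.58.1, other scalings and filters, runs of neighbouring wells (49 runs, 48 of 2 libraries) and left-out libraries were alternatives. The fitting code was tested on simulated data. Members and lists were chosen with earlier results of these data known. Tmed2 contrasts with the APOE3 DC hippocampus libraries, and vehicle region contrasts of Erlin2, are described without a test. Besides the members, named genes are the 5 with the highest correlation of group means for each, and up to 3 per list with the highest ratio to the negative probe or passing a test. A gene that this rule names is not reported here.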

Additional observations from a re-analysis of the deposited data

Results flagged for a closer look

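Of 24 sets of libraries examined (each gene in each of the 12 groups; sets of 8 or 9), 1 held a library that stood apart. In APOE3 DC cortex, library 7 had a Tmed2 log2 CPM of 10.54, and the nearest other library was at 11.53, a gap of 0.537 of the group's range. Its Tmed2 count was 1, the lowest value in the table. Chance alone marks about 1 in 20 such sets.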

How the results depend on the processing

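No paired analysis was possible because the labels carry no replicate numbers and do not tie regions to animals. Of the recomputed values, 1770 kept their side of the threshold or, with no test, stayed within 1 SD; 43 lost the threshold and 26 gained it with the same sign, 13 changed sign, and 17 with no test moved by more than 1 SD. Of 1296 that passed neither way, 119 had the other sign.

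On the ratio to the negative probe (chosen after the data were seen), DC against vehicle in hippocampus was -1.30 for Erlin2 and -0.14 for Tmed2 in APOE3, and -1.46 and -1.52 in APOE4; DD against DC in APOE4 hippocampus was 1.93 and 1.58, APOE4 against APOE3 in vehicle hippocampus -0.54 for Erlin2; and the described Tmed2 contrasts were -0.058 for DD against DC in APOE3 hippocampus, -1.11 for genotype in DC hippocampus and -1.38 for the genotype by DC interaction there. Hippocampus minus cortex was 0.71, 0.34, 0.36, 0.25 and -0.81 for Erlin2 in APOE3 vehicle, APOE4 vehicle, APOE3 DD, APOE3 DC and APOE4 DC, and 0.40, 0.17, 0.78, 0.80 and -0.75 for Tmed2 in APOE4 vehicle, APOE3 DD, APOE4 DD, APOE3 DC and APOE4 DC.

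With no low-count filter (19962 genes tested), hippocampus minus cortex was 0.63, 0.37, 0.36, 0.93, 0.31 and -0.079 for Erlin2 in APOE3 vehicle, APOE4 vehicle, APOE3 DD, APOE4 DD, APOE3 DC and APOE4 DC, and 0.76, 0.41, 0.25, 0.69, 0.69 and -0.59 for Tmed2; Tmed2 in APOE3 hippocampus was -0.19 for DC against vehicle and -0.014 for DD against DC, and the Erlin2 genotype difference in vehicle hippocampus -0.52. With a minimum count of 5 (499 genes over 12 groups), the region values were 0.79, 0.59, 0.52 and 0.21 for Erlin2 in APOE3 vehicle, APOE3 DD, APOE3 DC and APOE4 DC, and 0.92, 0.62, 0.45, 0.85, 0.90 and -0.24 for Tmed2 in the 6 groups; the Erlin2 genotype difference was -0.52. With runs of wells summed (257 genes), they were 0.82, 1.13, 0.84 and 0.16 for Erlin2 in APOE3 DD, APOE4 DD, APOE3 DC and APOE4 DC, and 1.06, 0.79, 0.70, 0.85, 1.19 and -0.17 for Tmed2; the genotype difference was -0.47. With these 257 genes no tested region contrast passed; with runs summed and the 58 genes kept, each of them did. With only the groups compared, APOE4 DC (1022 genes tested) gave 0.053 for Erlin2 and -0.39 for Tmed2, and Tmed2 genotype in DC hippocampus was -0.033; without the libraries of high negative probe the latter was -0.82.

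With library totals only, Tmed2 gave 0.71 and 0.80 for genotype in vehicle cortex and hippocampus, which both passed, -0.0015 for genotype in DC hippocampus, 1.34 and 0.53 for DC in APOE3 and APOE4 hippocampus, -0.63 for DD against DC in APOE4 hippocampus and 0.55 for region in APOE3 vehicle; Erlin2 gave 0.43 for DC in APOE4 hippocampus, 0.000311 for genotype in vehicle hippocampus and 0.45 for region in APOE3 vehicle. With library totals only, the values of 0.53 and -0.63 for Tmed2 and 0.43 for Erlin2 passed as well. Upper-quartile scaling gave -0.041 for Erlin2 and 0.76 for Tmed2 for genotype in vehicle hippocampus. That Erlin2 value was -0.32 with Mtch2 out of the scaling, -0.40 with DESeq2, -0.31 with the negative probe as covariate and -0.37 with runs summed over the same genes. Erlin2 passed for DC in APOE3 cortex with Mtch2 out of the scaling (-0.54), 1 subtracted (-0.62) or libraries of high negative probe left out (-0.60), and for genotype in vehicle cortex with Mtch2 out (-0.50).

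Leaving out single libraries gave -0.66 to -0.45 for Erlin2 after DC in APOE3 cortex, -0.58 to -0.33 and -0.53 to -0.33 for its genotype differences in vehicle cortex and hippocampus, -0.62 to -0.31 for Tmed2 genotype in DC hippocampus and -0.96 to -0.59 for its genotype by DC interaction there. The region difference in APOE3 DD stayed past the threshold without APOE3 DD cortex 5, 7 or 8 but dropped to 0.83 to 0.84 for Erlin2 and 0.59 to 0.73 for Tmed2; 56 genes were tested there, and the cause was not tested.

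The number of genes called also moved. For hippocampus minus cortex it was 30, 34 and 30 in APOE3 vehicle, DD and DC (1 to 37, 12 to 52 and 6 to 38 under the alternatives) and 33, 36 and 36 in APOE4 (23 to 92, 20 to 49 and 31 to 104). For genotype in vehicle hippocampus it was 15 (4 to 32), for DC in APOE3 cortex 7 (1 to 23), in APOE3 hippocampus 8 (0 to 19) and in APOE4 hippocampus 8 (0 to 186); the other contrasts had 0 to 14, with up to 70 under an alternative. A median Tmed2 count of 15 limits what a single library can show. Tmed2 did not pass the filter in some APOE3 contrasts fitted on the groups compared alone, which then gave no value.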
